A study of Mus musculus with 11 samples.

Results

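The genes described here, 25 in number, stood higher in the retinas of rd10 mice given the LSD1 inhibitor GSK2879552 than in every other retina of the experiment. They were chosen by their measured values: in CPM (a gene's read count divided by the library's total count and multiplied by 1000000), the lowest of the rd10 GSK libraries had to be at least 1 CPM and at least 1.5 times the highest of the other 8 libraries. Of 37991 genes in the count table, 30 met these numbers. Among them were 5 of 12 genes that the rule left out by name (Nr4a1, Npas4, Lad1, Fos and Junb), which leaves 25 genes. Because the rd10 GSK values selected the genes, every statement below that compares rd10 GSK with another group is a description and carries no test.

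The experiment had 11 libraries of polyadenylated RNA, each from the right-eye retina of a separate mouse at postnatal day (PN) 24. The 2 genotypes were wild-type C57Bl/6J and rd10 (B6.CXB1-Pde6brd10/Jrd10), which carries a mutant Pde6b. Mice received intraperitoneal injections daily from PN9 to PN24 of either saline or GSK2879552 at 4.2 mg/kg, which gave 2 libraries of saline-treated and 3 of GSK-treated wild type, and 3 of each treatment in rd10. Groups are named by genotype and treatment, such as rd10 GSK. All groups share the C57Bl/6 background, and the whole retina was taken, so a value is a mean over every retinal cell type. In such bulk samples fewer cells of a type and less RNA per cell cannot be told apart.

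As background, Pde6b encodes a subunit of the phosphodiesterase that breaks down cyclic GMP in rods, and the rd10 mutation leads to early loss of rods and later loss of cones. LSD1, encoded by Kdm1a, removes methyl groups from histone tails as part of repressor complexes with CoREST proteins, and GSK2879552 blocks it irreversibly. Several of the genes described here belong to the immediate early response, the first wave of transcription that follows neuronal firing, growth factors or cell stress; its factors of the Fos, Jun, Maf, Egr and Nr4a families switch on later genes. Others encode matrix enzymes, junction proteins, kinases and receptors, and as a set they belong to no single pathway.

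Library totals ranged from 19657030 to 28053367 counts. Kdm1a, the drug's target, was at 89.1 to 103 CPM across the 11 libraries; an inhibitor of the protein need not alter its transcript. The summed level of the rod markers was 64333 to 68627 CPM in wild-type libraries, 11165 to 13362 in rd10 saline, and 31075, 46262 and 55581 in rd10 GSK replicates 1, 2 and 3. Lens transcripts summed to 4.89 to 20.1 CPM except in wild-type saline replicate 2, at 670.3, and rd10 GSK replicate 2, at 7344. Xist, which is transcribed in female cells, was at 728 to 1430 CPM in 7 libraries, among them both wild-type saline retinas and rd10 GSK replicate 2, and at 0.0509 to 0.321 CPM in the other 4, among them rd10 GSK replicates 1 and 3. The part of sex and of lens tissue in the values below was not tested, beyond the results given without the libraries with lens transcripts.

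Across the 25 genes, the ratio of the lowest rd10 GSK library to the highest other library ran from 1.51 for Acvr2b to 2.19 for Loxl4. Group means in rd10 GSK were 1.84 to 4.67 times those in rd10 saline, with a median of 2.67, and 1.59 to 13.4 times those in wild-type GSK. Over all genes, 915 of 24859 with a read in any library, or 3.68%, had every rd10 GSK library above each of the other 8. The same numbers applied to the other groups gave 0 genes for wild-type saline, 5 for wild-type GSK and 183 for rd10 saline. The 5 genes nearest the threshold on the inside were Acvr2b, Rfx2, Krt18, Tead3 and Tnip2, at 1.51 to 1.56. Just outside were a gene without a symbol just under the threshold, Pcare at 1.49, Rnf225 at 1.48, and A930041C12Rik and Nudt6, both at 1.46. A further 28 genes met the ratio but not 1 CPM.

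**Figure D1:**
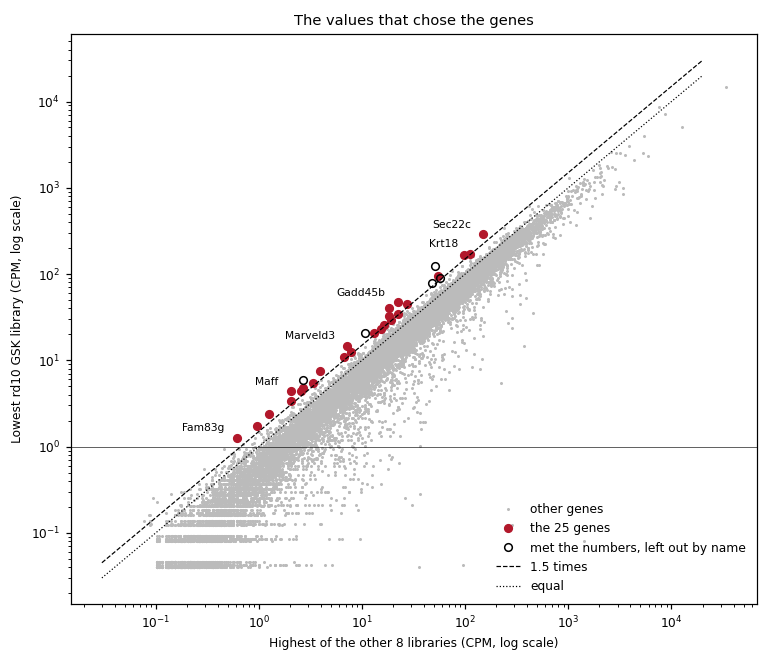
Every gene is plotted by its highest CPM in the 8 libraries outside rd10 GSK (x axis, log scale) and its lowest CPM in the 3 rd10 GSK libraries (y axis, log scale), with lines at equality, at 1.5 times and at 1 CPM. Filled red points are the 25 genes, from 1.51 to 2.19 times the highest other library, and open circles are the 5 genes left out by name.

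The values that did not enter the choice through rd10 GSK allow 2 tested comparisons, which ask what the disease alone and the drug alone did to these genes. Both used edgeR's quasi-likelihood test with Benjamini-Hochberg adjustment over the 17099 genes that passed the count filter, and a gene was called at an adjusted p under 0.05. All 25 genes passed that filter, and all 25 also passed it when only the other 8 libraries were considered. With the filter on the compared groups only, 24 of the 25 were tested in rd10 saline against wild-type saline, without Fam83g. The rule also set a ceiling on these 8 libraries relative to rd10 GSK, so neither comparison is fully free of the choice. Fold changes are on the log2 scale after TMM normalization, whereas levels are in CPM.

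In rd10 saline against wild-type saline, 8 of the 25 genes rose, 4 fell and 13 were not called. Gadd45b, Fam83g, Maff, Map3k6, Tnnt2, Loxl4, Cdkn1a and Rfx2 rose, and Sp6, Gm15513, Acvr2b and Cnnm4 fell. Over all tested genes 40.5% were called, 21.5% higher and 19.0% lower, so the 12 of 25 called (48.0%) lie near that background. The median log2 change was 0.16 over the 25 genes and 0.02 over all tested genes. Scaling by total counts shifted the median of all genes to 0.23 and that of the 25 genes to 0.37, and 81.2% of the calls over all genes were then higher, against 53.0% with TMM. Of the 25 genes, 11 were then called higher and 1 lower.

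Gadd45b, Cdkn1a, Rfx2 and Sp6 kept their calls in each of the 20 alternative analyses that were run. The other 8 calls were each lost in at least one. Leaving out wild-type saline replicate 2, 1 of only 2 controls and a library with lens transcripts, left 5 of 25 calls, 4 higher and 1 lower: Loxl4, Maff, Fam83g, Tnnt2, Cnnm4, Gm15513 and Acvr2b were lost, at adjusted p values of 0.0534 to 0.165. Without wild-type saline replicate 1, Loxl4, Fam83g and Acvr2b were lost (adjusted p 0.117, 0.126 and 0.158). Fam83g was also lost without rd10 saline replicate 1 (0.169), and Acvr2b without any single wild-type GSK replicate (0.0554 to 0.0575). Without rd10 GSK replicate 3, Ptgfr and Gm15983 were gained (0.000429 and 0.0173). Calls among the 25 genes were also lost without both libraries with lens transcripts. Each fit without a wild-type saline library leaves a lone control. Calls over all tested genes became fewer there as well, so these losses are not particular to the 25 genes.

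In wild-type GSK against wild-type saline, 1 of the 25 genes rose, 0 fell and 24 were not called. Map3k6, a stress-responsive kinase, was the gene that rose. The background was 0.532% of tested genes, 0.444% higher and 0.0877% lower. At an unadjusted p under 0.05 there were 5 of the 25 genes, against 1535 of all 17099. DESeq2 called 2 of the 25, Map3k6 and Krt18, and limma-voom called 0. With limma-voom 5 had an unadjusted p under 0.05, against 1484 of all 17099. The main fit shared its estimate of spread over all 4 groups. With only the compared groups fitted, 4 of the 25 were called, 3 higher and 1 lower, against 916 of all 16230 then tested. Those were Map3k6, Fam83g, Cdkn1a and, lower, Gm15513. The median log2 change was 0.08 over the 25 genes, against -0.00 over all tested genes, and a gene that was not called is not thereby shown to be unchanged.

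**Figure D2:**
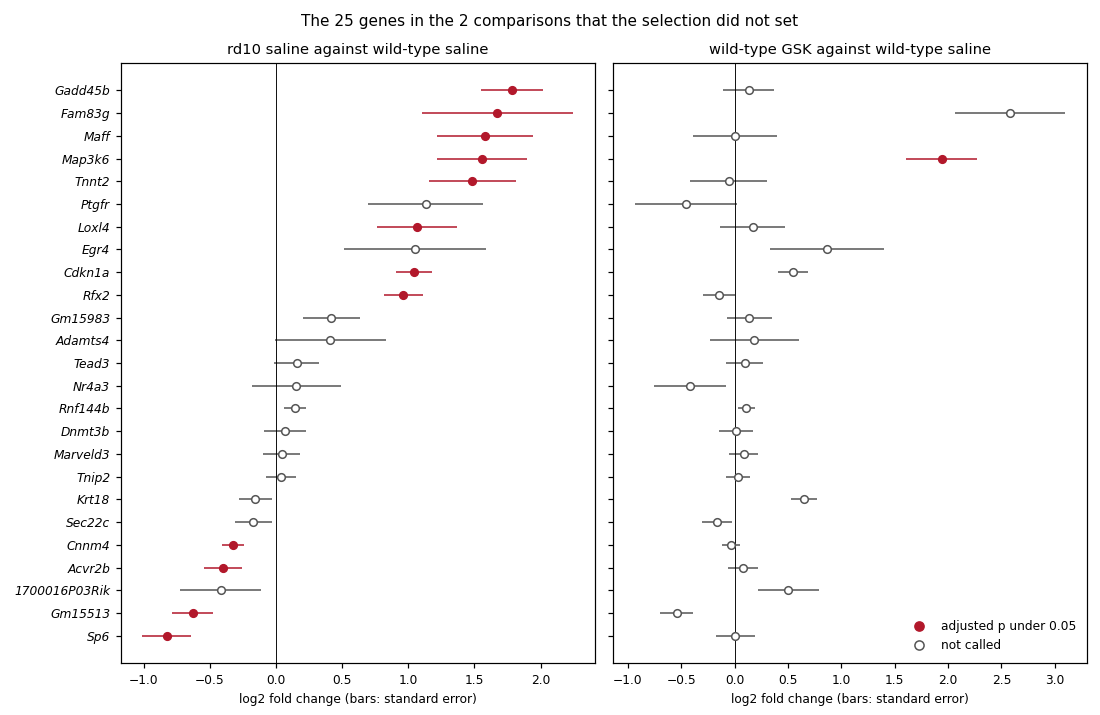
Log2 fold changes with standard errors are drawn for each of the 25 genes in rd10 saline against wild-type saline and in wild-type GSK against wild-type saline, with called genes (adjusted p under 0.05) in filled symbols. The points for rd10 saline spread from -0.82 for Sp6 to 1.78 for Gadd45b, and the single call for wild-type GSK is Map3k6 at 1.94.

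**Figure D3:**
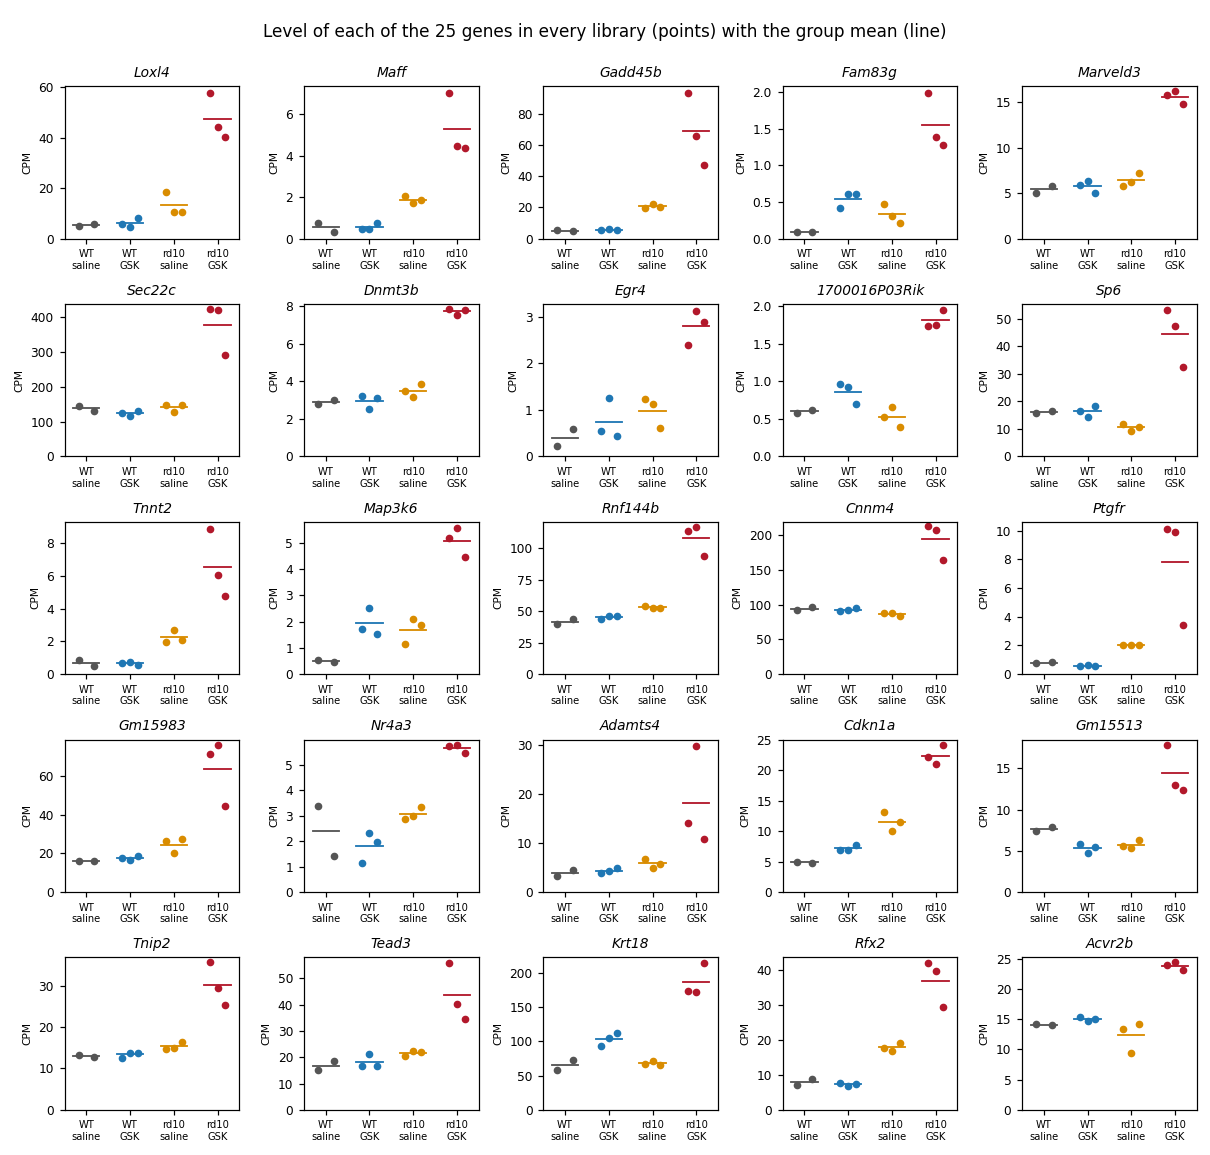
The CPM (y axis, linear, from 0) of each of the 25 genes is drawn for each library as a point, with a line at the group mean, 1 panel a gene; WT is wild type. In every panel the 3 rd10 GSK points lie above the other 8, as the choice of genes required; the position of the rd10 saline points against the wild-type points differs from gene to gene.

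Transcription factors and an enzyme that modifies DNA make up 7 of the genes. In rd10 saline 2 of these 7 rose, 1 fell and 4 were not called, and 0 of 7 were called in wild-type GSK. Over all tested genes 21.5% rose and 19.0% fell in rd10 saline, and 0.532% were called in wild-type GSK. The same shares stand beside the counts for each functional group below. These groups were drawn by hand and are too small to be set apart from those shares. Maff is a small Maf protein, a basic leucine zipper factor without an activation domain of its own that pairs with other factors of its class. Maff was at 0.756 and 0.332 CPM in wild-type saline, 0.461, 0.463 and 0.735 in wild-type GSK, 2.03, 1.73 and 1.87 in rd10 saline and 7.01, 4.47 and 4.37 in rd10 GSK. The 4 groups thus form steps, with all rd10 saline libraries above all wild-type libraries and all rd10 GSK libraries above those. The rise in rd10 saline was 1.58 ± 0.36 (log2, SE, adjusted p = 0.00463). Nr4a3, an orphan nuclear receptor and immediate early gene, did not show such steps. Its levels were 3.38 and 1.41 CPM in wild-type saline, 1.15, 2.32 and 1.95 in wild-type GSK and 2.88, 3.00 and 3.35 in rd10 saline, against 5.76, 5.76 and 5.48 in rd10 GSK. The rd10 saline values lay within the range of the wild-type saline pair. The change in rd10 saline was 0.15 ± 0.34 (log2, SE, adjusted p = 0.747), which was not called. Egr4, a zinc finger factor of the early growth response family, rested on few reads (5 and 14 in wild-type saline), at 0.222 and 0.581, 0.538, 1.248 and 0.433 and 1.23, 1.12 and 0.609 CPM in the same 3 groups. The rd10 GSK libraries held 2.39, 3.14 and 2.89 CPM of Egr4, and its change in rd10 saline was 1.05 ± 0.53 (log2, SE, adjusted p = 0.142), also not called.

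Rfx2, a winged-helix factor known for its part in the expression of cilium genes, again formed steps. It was at 7.11 and 8.79 CPM in wild-type saline, 7.76, 6.74 and 7.31 in wild-type GSK, 17.7, 16.9 and 19.2 in rd10 saline and 41.7, 39.7 and 29.2 in rd10 GSK. All rd10 saline libraries lay above all wild-type libraries, and the rise was 0.96 ± 0.15 (log2, SE, adjusted p = 0.000371). Sp6, a zinc finger factor of the Sp family known from tooth and skin epithelium, went the other way in untreated disease. Sp6 was at 15.8 and 16.4 CPM in wild-type saline and 16.4, 14.2 and 18.3 in wild-type GSK, and at 11.7, 9.06 and 10.7 in rd10 saline, below all 5 wild-type libraries. In rd10 GSK it was at 53.2, 47.3 and 32.6 CPM, so its mean there was 4.22 times that in rd10 saline. The fall of Sp6 in rd10 saline was -0.82 ± 0.19 (log2, SE, adjusted p = 0.00510).

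Dnmt3b, which places new methyl groups on DNA, was the most even of the 25 genes within rd10 GSK, with 7.87, 7.56 and 7.81 CPM and a ratio of highest to lowest library of 1.04. It was at 2.80 and 2.99 CPM in wild-type saline, 3.23, 2.53 and 3.11 in wild-type GSK and 3.49, 3.15 and 3.87 in rd10 saline. In CPM rd10 saline thus overlapped with wild-type GSK and lay just above wild-type saline, which it also overlapped with TMM scaling. Tead3, a TEA domain factor that binds DNA for the coactivators YAP and TAZ, ranged from 15.2 to 22.3 CPM in the other 8 libraries and was at 56.0, 40.4 and 34.5 in rd10 GSK. Neither gene was called in rd10 saline, where the change was 0.07 ± 0.16 (log2, SE, adjusted p = 0.765) for Dnmt3b. For Tead3 the change was 0.16 ± 0.17 (log2, SE, adjusted p = 0.509).

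Promoter sequences were looked at because immediate early factors act through short known motifs. RefSeq (GRCm38.p6) held promoters, from 250 bases before to 50 after a start, for 20 of the 25 genes, 27 promoters in all. The cyclic AMP response element, TGACGTCA, the site of CREB, lay in 2 of these 27, against 1.79% of 32851 promoters of all genes. Those are shown here, on the plus strand, with the element in capitals: Cnnm4 at chr1:36471347-36471646, where it starts 24 bases before the start, and 1 of the 3 Maff promoters at chr15:79347270-79347569, where it starts 29 bases before.
Cnnm4: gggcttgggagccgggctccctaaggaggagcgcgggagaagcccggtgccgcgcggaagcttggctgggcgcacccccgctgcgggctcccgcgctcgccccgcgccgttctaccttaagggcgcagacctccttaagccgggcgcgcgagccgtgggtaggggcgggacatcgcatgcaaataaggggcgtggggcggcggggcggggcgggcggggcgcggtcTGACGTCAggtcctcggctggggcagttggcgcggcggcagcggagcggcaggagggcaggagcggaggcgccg
Maff: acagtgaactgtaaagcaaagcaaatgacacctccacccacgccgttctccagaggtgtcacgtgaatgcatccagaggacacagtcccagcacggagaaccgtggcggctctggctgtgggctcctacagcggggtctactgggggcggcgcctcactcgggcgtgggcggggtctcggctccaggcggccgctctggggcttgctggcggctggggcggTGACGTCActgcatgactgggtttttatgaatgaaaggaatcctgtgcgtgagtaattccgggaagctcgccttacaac
The AP-1 motif TGANTCA lay in 0 of the 27, against 7.81% of all promoters, and the CArG box of serum response factor in 0, against 1.63%. The motif GCGNGGGCG of EGR factors lay in 5 (those of Dnmt3b, Fam83g, Gadd45b, Maff and Tnip2), against 5.55%. Also searched on both strands were the STAT motif TTCNNNGAA, in 4 of 27 against 8.30%, and the CRX motif TAATCC, in 2 of 27 against 7.06%. The windows also differed in base composition, with a median GC content of 64.7% for these genes and 52.7% for all. A match is a description of letters and not a bound site, and the absence of a match says nothing of the factor.

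Cell stress and growth control are the field of 5 genes, of which 3 rose in rd10 saline, 0 fell and 2 were not called. Over all tested genes 21.5% rose and 19.0% fell, and a group of 5 is too small to be set apart from that. Gadd45b, induced by stress and by neuronal activity, modulates stress kinases and takes part in removing DNA methylation. Gadd45b was at 5.38 and 4.94 CPM in wild-type saline, 5.53, 6.02 and 5.58 in wild-type GSK, 19.5, 22.1 and 20.2 in rd10 saline and 93.4, 65.7 and 47.0 in rd10 GSK. No library of rd10 saline overlapped with wild type, and the rise there was 1.78 ± 0.24 (log2, SE, adjusted p = 0.000278), the greatest of the 25 genes in that comparison. Its mean in rd10 GSK was 13.3 times that in wild-type saline. Cdkn1a, the p21 inhibitor of cyclin-dependent kinases and a p53 target, had 4.93 and 4.77 CPM in wild-type saline, 6.95, 6.92 and 7.66 in wild-type GSK and 13.2, 9.97 and 11.6 in rd10 saline. The rd10 GSK libraries held 22.2, 20.9 and 24.1 CPM of Cdkn1a. Its rise in rd10 saline was 1.04 ± 0.14 (log2, SE, adjusted p = 0.000133). In wild-type GSK all 3 libraries were above both controls, but the change of 0.55 ± 0.14 (log2, SE, adjusted p = 0.132) was not called. It was called when only the compared groups were fitted (adjusted p = 0.0132).

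Map3k6, a kinase that activates the stress-responsive MAP kinase cascades, was called in both comparisons. It was at 0.533 and 0.456 CPM in wild-type saline, 1.73, 2.53 and 1.51 in wild-type GSK, 1.13, 2.09 and 1.87 in rd10 saline and 5.19, 5.53 and 4.46 in rd10 GSK. The wild-type GSK and rd10 saline libraries overlapped each other and both lay above the controls, with rises of 1.94 ± 0.33 (log2, SE, adjusted p = 0.0285) for the drug in wild type and 1.56 ± 0.34 (log2, SE, adjusted p = 0.00363) for rd10 saline. The control values rest on 12 and 11 reads. The drug call did not hold with limma-voom (adjusted p = 0.114), without wild-type saline replicate 1 (0.310) or replicate 2 (0.259), or without wild-type GSK replicate 1 (0.0808), 2 (0.105) or 3 (0.0519). It was also lost without both libraries with lens transcripts (0.348).

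Tnip2, which binds the enzyme A20 and restrains NF-kB, ranged from 12.6 to 16.3 CPM in the other 8 libraries and was at 35.8, 29.4 and 25.4 in rd10 GSK. Rnf144b, a ubiquitin ligase known as a p53 target, was at 39.6 and 43.5 CPM in wild-type saline, 44.1, 45.9 and 46.0 in wild-type GSK, 54.1, 52.6 and 52.9 in rd10 saline and 114, 117 and 93.9 in rd10 GSK. In CPM the rd10 saline libraries lay above the wild-type libraries for both genes, by a small margin. With TMM scaling they overlapped with wild type for both. Neither was called, with changes in rd10 saline of 0.04 ± 0.12 (log2, SE, adjusted p = 0.817) for Tnip2 and 0.14 ± 0.08 (log2, SE, adjusted p = 0.184) for Rnf144b. With total-count scaling Rnf144b was called, at 0.36 (adjusted p = 0.00556).

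Receptors and a signalling scaffold are encoded by 3 genes, and in rd10 saline 1 of them rose, 1 fell and 1 was not called. Ptgfr, the receptor for prostaglandin F, varied most among the rd10 GSK libraries, at 10.1, 9.87 and 3.40 CPM in replicates 1, 2 and 3. It was at 0.756 and 0.830 CPM in wild-type saline, 0.576, 0.606 and 0.562 in wild-type GSK and 2.03, 2.03 and 2.00 in rd10 saline. The rd10 saline libraries were close together and above all wild-type libraries, and the change of 1.13 ± 0.44 (log2, SE, adjusted p = 0.0579) was not called; it was called in 5 of the 20 alternatives. Acvr2b, a type II receptor for activin and myostatin, had 14.1 and 14.0 CPM in wild-type saline, 15.3, 14.7 and 15.1 in wild-type GSK, 13.4, 9.46 and 14.1 in rd10 saline and 24.04, 24.5 and 23.1 in rd10 GSK. The rd10 saline libraries overlapped with wild type, with a fall of -0.40 ± 0.14 (log2, SE, adjusted p = 0.0401) that was lost in 8 of the 20 alternatives.

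Fam83g, a scaffold protein of casein kinase that acts in Wnt and BMP signalling, was the least expressed of the 3 by count. It had 2 and 2 reads in wild-type saline, 11, 17 and 14 in wild-type GSK, 10, 6 and 5 in rd10 saline and 49, 30 and 30 in rd10 GSK, or 0.0889 and 0.0830, 0.423, 0.606 and 0.606, 0.472, 0.305 and 0.217 and 1.99, 1.38 and 1.27 CPM. Wild-type GSK and rd10 saline both lay above the controls. The rise in rd10 saline was 1.67 ± 0.57 (log2, SE, adjusted p = 0.0353), and was lost in 7 of the 18 alternatives that tested the gene, DESeq2 and limma-voom among them (adjusted p 0.116 and 0.0668). The change in wild-type GSK was 2.58 ± 0.52 (log2, SE, adjusted p = 0.0574), which was not called. It was called without rd10 GSK replicate 1, without the count filter, and with only the compared groups fitted (adjusted p = 0.0144). With so few reads in the controls, the size of either change is uncertain.

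The extracellular matrix, cell junctions and the cytoskeleton account for 5 genes, of which 2 rose in rd10 saline, 0 fell and 3 were not called. Loxl4, a lysyl oxidase that cross-links collagen and elastin, had the highest selection ratio of all 25. It was at 5.16 and 5.81 CPM in wild-type saline, 5.88, 4.74 and 8.17 in wild-type GSK, 18.4, 10.7 and 10.7 in rd10 saline and 57.9, 44.2 and 40.2 in rd10 GSK. All rd10 saline libraries were above all wild-type libraries, with replicate 1 the highest of them, and the rise was 1.06 ± 0.30 (log2, SE, adjusted p = 0.0199). Adamts4, a secreted protease that cleaves aggrecan and related proteoglycans, had 3.16 and 4.40 CPM in wild-type saline, 3.92, 4.21 and 4.93 in wild-type GSK and 6.70, 4.99 and 5.74 in rd10 saline. Its rd10 GSK values were 14.0, 29.7 and 10.8 CPM, so replicate 2, the library with the most lens transcripts, was 2.76 times replicate 3. The change of Adamts4 in rd10 saline was 0.41 ± 0.42 (log2, SE, adjusted p = 0.476), which was not called.

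Marveld3, a tight junction protein, was at 4.98 and 5.81 CPM in wild-type saline, 5.92, 6.35 and 5.06 in wild-type GSK, 5.80, 6.26 and 7.22 in rd10 saline and 15.8, 16.2 and 14.8 in rd10 GSK. Its 3 lower groups overlapped, the change in rd10 saline was 0.04 ± 0.14 (log2, SE, adjusted p = 0.829), and the rd10 GSK libraries differed little among themselves. Krt18, a keratin of simple epithelia that pairs with Krt8, had 58.3 and 72.2 CPM in wild-type saline and 66.6, 71.4 and 65.6 in rd10 saline, which overlapped. In wild-type GSK it was at 93.9, 105 and 112 CPM, above both of those groups, and in rd10 GSK at 173, 173 and 215. The change of Krt18 in wild-type GSK was 0.65 ± 0.13 (log2, SE, adjusted p = 0.0557), not called. It was called with DESeq2 (adjusted p = 0.000202) and without rd10 GSK replicate 1 or 3, among others. Krt8 stayed between 0.435 and 2.34 CPM over the 11 libraries.

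Tnnt2, cardiac troponin T of the thin filament, was at 0.889 and 0.498 CPM in wild-type saline, 0.691, 0.749 and 0.562 in wild-type GSK, 1.98, 2.70 and 2.09 in rd10 saline and 8.88, 6.04 and 4.75 in rd10 GSK. All rd10 saline libraries lay above all wild-type libraries, and the rise was 1.49 ± 0.33 (log2, SE, adjusted p = 0.00380). The summed muscle markers were 3.52 to 6.18 CPM over wild-type and rd10 saline, and reached 42.5 in rd10 GSK replicate 3, the library with the lowest Tnnt2 of its group. Tnnt2 lies 3012 bases from Lad1 on the same strand in GENCODE M21. Lad1, a gene left out by name, was at 8.55 to 10.6 CPM in rd10 saline and at 50.1, 39.7 and 20.5 in rd10 GSK. Tnnt2 had the same order of replicates, as did many of the 25 genes, Loxl4, Maff and Gadd45b among them.

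Cnnm4 and Sec22c act in membrane transport and traffic, and 1 of these 2 fell in rd10 saline. Cnnm4 is a magnesium transporter whose loss in humans causes cone-rod dystrophy with defects of tooth enamel. Cnnm4, whose promoter is printed above, had 91.7 and 96.3 CPM in wild-type saline, 91.1, 91.8 and 95.7 in wild-type GSK, 88.6, 87.6 and 84.4 in rd10 saline and 213, 207 and 164 in rd10 GSK. The rd10 saline libraries lay just below the wild-type libraries, a fall of -0.33 ± 0.08 (log2, SE, adjusted p = 0.00872) that was -0.11 with total-count scaling (adjusted p = 0.332). Sec22c, a membrane protein of the route from endoplasmic reticulum to Golgi, was at 145 and 132 CPM in wild-type saline, 126, 117 and 131 in wild-type GSK, 148, 129 and 149 in rd10 saline and 424, 421 and 293 in rd10 GSK. The rd10 saline libraries overlapped with wild-type saline, wild-type GSK lay just below it, and the change of Sec22c in rd10 saline was -0.17 ± 0.14 (log2, SE, adjusted p = 0.358), not called.

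Non-coding transcripts make up 3 of the 25 genes, and 1 of them fell in rd10 saline. 1700016P03Rik is the host transcript of the microRNAs miR-212 and miR-132, whose locus is a known CREB target in neurons. The mature sequences, from RefSeq (GRCm38.p6), are shown because the main arms of both microRNAs have the same seed, bases 2 to 8, in capitals. They lie on the plus strand of chromosome 11, Mir212 at chr11:75173388-75173478 and Mir132 at chr11:75173682-75173747.
mmu-miR-212-3p: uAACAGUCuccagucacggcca
mmu-miR-132-3p: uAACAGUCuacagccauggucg
mmu-miR-212-5p: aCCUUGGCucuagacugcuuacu
mmu-miR-132-5p: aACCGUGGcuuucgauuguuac
Mature microRNAs have no poly(A) tail and were not measured in these libraries. The host 1700016P03Rik was at 0.578 and 0.622 CPM in wild-type saline, 0.960, 0.927 and 0.692 in wild-type GSK, 0.519, 0.661 and 0.391 in rd10 saline and 1.74, 1.75 and 1.95 in rd10 GSK. The rd10 saline libraries overlapped with wild-type saline, wild-type GSK lay slightly above it, and the rd10 GSK libraries rest on 43, 38 and 46 reads. Its changes were -0.42 ± 0.31 (log2, SE, adjusted p = 0.368) in rd10 saline and 0.50 ± 0.28 (log2, SE, adjusted p = 0.708) in wild-type GSK, neither called.

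Gm15983 is annotated antisense to Eef2kmt and Gm15513 lies within an intron of Zfyve28 on the same strand. Gm15983 was at 15.9 and 16.0 CPM in wild-type saline, 17.7, 16.6 and 18.9 in wild-type GSK, 26.4, 20.2 and 27.2 in rd10 saline and 71.6, 76.0 and 44.4 in rd10 GSK. In CPM all rd10 saline libraries lay above all wild-type libraries, though with TMM scaling they overlapped. The change of 0.42 ± 0.21 (log2, SE, adjusted p = 0.152) was not called. Gm15513 had 7.42 and 7.84 CPM in wild-type saline, 5.76, 4.67 and 5.49 in wild-type GSK, 5.52, 5.34 and 6.26 in rd10 saline and 17.8, 13.0 and 12.4 in rd10 GSK, so both wild-type GSK and rd10 saline lay below wild-type saline. The change of Gm15513 in rd10 saline was -0.63 ± 0.16 (log2, SE, adjusted p = 0.00738), a fall. In wild-type GSK the change was -0.54 ± 0.16 (log2, SE, adjusted p = 0.219), not called. It was called there with only the compared groups fitted (adjusted p = 0.0142). Its host Zfyve28 was at 109 to 138 CPM in rd10 GSK against at most 74.8 in any other library, and Eef2kmt was at 21.8 to 25.6 against at most 18.3. The sources used here do not state the strand setting of the read counting, and reads of these overlapping pairs cannot be told apart. The same holds for 1700016P03Rik, which overlaps Ovca2 on the opposite strand, though the rd10 GSK libraries were not all the highest for Ovca2.

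Within 10000 bases of the 25 genes lay 29 other expressed genes in GENCODE M21. In 7 of these 29, against 3.68% of all detected genes, every rd10 GSK library was above all others: Lad1, Zfyve28, Eef2kmt, R3hcc1l near Loxl4, Phlpp2 near Marveld3, Rpl10a near Tead3 and Xylb near Acvr2b. The last 4 did so by ratios of only 1.04 to 1.22. Lad1 met the selection numbers itself, and Zfyve28 and Eef2kmt overlap genes among the 25. The 29 neighbours all reached 1 CPM in some library, whereas the 3.68% covers every gene with a read, so the shares are over unlike sets. The 25 genes lie on 15 chromosomes, and 22 of them are annotated as protein coding.

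Genes of the same classes were read from lists of activity-induced and stress genes, which overlap with the 25 genes. Of 24 activity-induced transcription factors, every rd10 GSK library was above all others in 15, against 3.68% of all detected genes. The 3.68% covers all genes with a read in any library. All 24 listed genes passed the count filter, so the shares are over unlike sets. Maff, Egr4 and Nr4a3 are among the 25 genes, so the choice fixed their place in the 15. The other 12 were Atf3, Btg2, Csrnp1, Fosl1, Ier3, Jund, Klf4, Mafk, Per1, Srf, Tiparp and Zfp36. Their ratios of lowest rd10 GSK to highest other library ran from 1.004 for Zfp36 to 1.37 for Btg2. Jund at 1.055 and Klf4 at 1.076 were also narrow. The rest of the list did not separate in this way. Of these, Nr4a2, Ier5 and Klf2 had a lower mean in rd10 GSK than in rd10 saline. Egr2, Egr3, Klf6, Klf10, Myc and Crem had a higher mean. The summed level of all 24 was 505 to 557 CPM in wild-type libraries, 609.6 to 656 in rd10 saline and 828 to 1000.3 in rd10 GSK. In rd10 saline 11 of the 24 rose and 2 fell, Btg2 and Ier3, where 21.5% of all tested genes rose and 19.0% fell. Their median log2 change was 0.42, and in wild-type GSK 0 of 24 were called, with a median of -0.01. The list was assembled with earlier results of these libraries known, so its direction is not independent of them.

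Of 28 activity-induced effectors, 8 had every rd10 GSK library above all others, again against 3.68% of all detected genes: Ccn1, Dusp1, Dusp5, Gadd45b, Plk3, Sik1, Spry4 and Vgf. Gadd45b did so by the choice of the 25 genes. For the others the ratio to the highest other library ran from 1.01 for Plk3 to 1.41 for Sik1. Spry4 at 1.03 and Vgf at 1.05 were also narrow. The summed level of these effectors did not separate the treatments in rd10, at 1695 to 1847 CPM in saline and 1633 to 1860 in GSK. Nptx1, Homer1, Dusp6, Rgs2, Pcsk1, Ccn2, Scg2 and Lonrf3 had a lower mean in rd10 GSK than in rd10 saline, and the other effectors a higher one. In rd10 saline 15 of the 28 rose and 1 fell. The backgrounds of 21.5% higher, 19.0% lower and 3.68% with every rd10 GSK library highest hold for the counts that follow as well. Of 12 glucocorticoid-induced genes, Cdkn1a, Map3k6 and Sgk1 were highest in every rd10 GSK library. Cdkn1a and Map3k6 are among the 25 genes, so the choice fixed their place. Sgk1 did so by a ratio of only 1.001. The summed list was at 608 to 746 CPM in rd10 saline and lower, at 452 to 588, in rd10 GSK. In rd10 saline 4 of the 12 rose and 1 fell. Map3k6 alone was called in wild-type GSK, where the median was 0.41. Of 13 genes of the integrated stress response, Atf4, Atf5, Ddit3, Gdf15 and Trib3 were highest in every rd10 GSK library. Their ratios ran from 1.09 for Atf5 to 1.43 for Atf4. Asns, Chac1 and Psat1 went the other way, with lower means in rd10 GSK than in rd10 saline (Asns 42.2 against 55.7 CPM). Means of Sesn2, Vldlr, Phgdh and Slc7a11 were higher in rd10 GSK. Among 12 tested, 6 rose (Asns, Atf5, Chac1, Gdf15, Psat1 and Slc7a11) and 2 fell (Atf4 and Vldlr) in rd10 saline.

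Epithelial genes were read because Krt18, Marveld3 and Sp6 are known from epithelia. Of 12 epithelial genes, Epcam and Krt18 were highest in every rd10 GSK library. Without Krt18 the list summed to 7.91 to 15.5 CPM over the 8 other libraries and to 11.7 to 32.7 in rd10 GSK, the highest value again being replicate 2, where Cdh1 was at 16.4 CPM. Of 8 tested, 0 rose and 1 fell (Cldn7) in rd10 saline, and 0 were called in wild-type GSK. The part of epithelial or lens tissue in these values was not tested. In 6 further lists 1 gene each had every rd10 GSK library highest, Rcor2 of 16 LSD1 complex partners, Dnajb1 of 10 heat shock genes, Per1 of 15 clock genes, Vgf of 14 neuroendocrine genes, Th of 10 amacrine genes and Slc4a1 of 6 blood genes. Rcor2, which encodes a CoREST protein, did so only narrowly, with 14.99 CPM in its lowest rd10 GSK library and 14.86 in the highest other. Of 14 LSD1 complex partners tested, 2 rose and 5 fell in rd10 saline, and 0 were called in wild-type GSK. No gene of the rod, cone, bipolar, Müller glia, microglia, lens, pigment epithelium, muscle or proliferation lists had all rd10 GSK libraries above all others.

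The 3 rd10 GSK retinas were not alike. Replicate 1 was the highest of the 3 for 14 of the 25 genes, replicate 2 for 8 and replicate 3 for 3, and replicate 3 was the lowest for 20. As a percentage of the group mean, the median gene was at 112% in replicate 1, 102% in replicate 2 and 84.3% in replicate 3. The spread ran from a ratio of 1.04 for Dnmt3b to 2.99 for Ptgfr between the highest and lowest library. Replicate 3 was above the mean for 5 of the 25 genes.

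Markers of other cell states had an order over these 3 libraries. Rod markers were lowest in replicate 1 and highest in replicate 3, as given above. The reactive glia list summed to 1555, 1084 and 543 CPM in replicates 1, 2 and 3, against 1566 to 1726 in rd10 saline and 138 to 153 in wild type. Microglia markers summed to 343, 235 and 157 CPM, against 595 to 689 in rd10 saline and 85.8 to 94.9 in wild type. The summed Müller glia list went the other way, at 4974, 5244 and 6277 CPM in replicates 1, 2 and 3. Replicate 3, with the most rod and the least reactive glia and microglia transcript, also had the lowest level for most of the 25 genes. Whether these move together beyond 3 retinas was not tested. The summed rod, reactive glia and microglia markers of rd10 GSK lay between those of wild type and rd10 saline, whereas the 25 genes, by the choice, did not. Without rd10 GSK replicate 3, 93 genes met the selection numbers in place of 25.

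**Figure D4:**
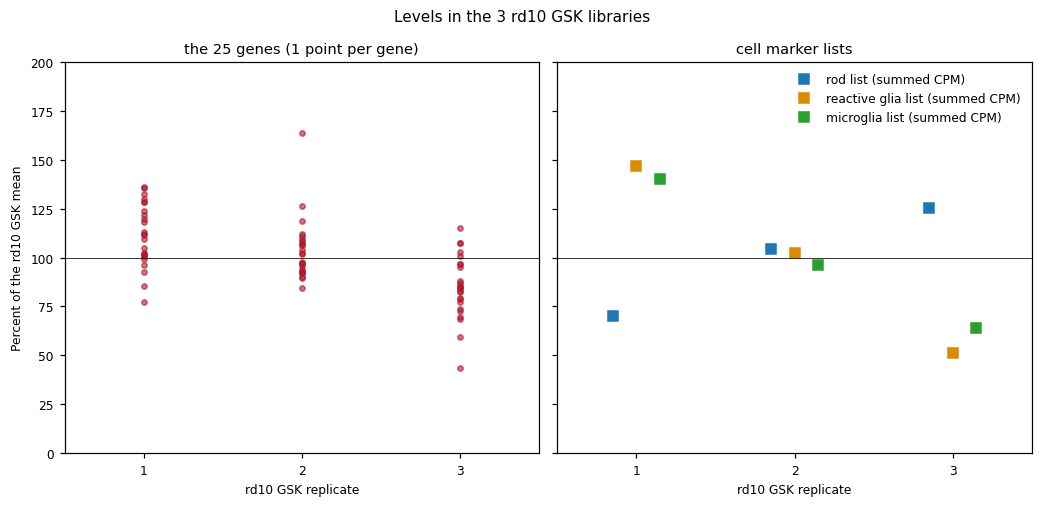
The left panel draws each of the 25 genes as a point in the 3 rd10 GSK libraries, as a percentage of its mean there, and the right panel the summed rod, reactive glia and microglia markers on the same scale. The gene medians were 112%, 102% and 84.3% in replicates 1, 2 and 3, while rod markers went from 31075 to 55581 CPM and reactive glia markers from 1555 to 543 CPM.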

How the data were processed

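Retinal polyA RNA was sequenced with a stranded kit, per the labels' protocols. The values deposited by the authors are unnormalized read counts for each gene; the submitters' processing notes name bcl2fastq, HISAT2 2.1.0, HTSeq and edgeR and the builds NCBIM37 and mm9. Neither the strand setting nor the annotation of HTSeq is stated in the sources used. Genes without a symbol in the name table (5072) held 0.627% of counts. From the counts, CPM per library and edgeR 4.0.16 quasi-likelihood tests (TMM, filterByExpr with a minimum count of 10 and a minimum total of 15, all 11 libraries in one fit) were computed with R 4.3.3; DESeq2 1.42.0 and limma 3.58.1 (voom) were alternatives. The SE is the log2 fold change divided by the square root of F. The scripts were tested on simulated data. Replicates differed beyond sampling noise and each counted once. The members and all gene lists were chosen with earlier results of these data known. The genes named are all 25 members, the listed genes with every rd10 GSK library highest, some other listed genes, and neighbours within 10000 bases.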

Additional observations from a re-analysis of the deposited data

How the results depend on the processing

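The choice of 25 genes depended on its numbers: a looser ratio gave 84 genes and a ratio of 2 gave 5, and leaving out single libraries gave 25 to 93 (93 without rd10 GSK replicate 3). With TMM or RLE scaling 22 of the 25 were kept; Acvr2b, Gm15513 and Krt18 were lost. In rd10 saline against wild-type saline, the 6919 calls over all genes became 4081 without the libraries with lens transcripts and 4435 to 7506 without single libraries. The 12 calls among the 25 genes became 4 without the libraries with lens transcripts and 5 to 14 without single libraries. Their median log2 change of 0.16 was 0.37 with total-count scaling and 0.13 to 0.29 without single libraries. In wild-type GSK against wild-type saline, 91 genes were called over all, and 188 with DESeq2, 52 with limma-voom, 916 when only the compared groups were fitted, 12 without the libraries with lens transcripts and 12 to 182 without single libraries. Among the 25 genes, 1 was called, against 2 with total-count scaling, DESeq2, no count filter or a filter on the compared groups, 4 with only the compared groups fitted, 0 with limma-voom or without the libraries with lens transcripts, and 0 to 3 without single libraries. No result for a single gene changed direction once called. With 2 controls, the loss of either leaves a lone control assumed to vary like the other groups.

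Over 15 pairs of libraries with the same replicate number, deviations from the group mean correlated at -0.19 to 0.39, with 5 above 0.1. The highest was between replicate 2 of wild-type saline and of rd10 GSK, the libraries with lens transcripts. In groups of 2 or 3 the deviations depend on each other, so these values cannot decide whether the numbers pair the samples. With the replicate number as a block, 38 genes over all and 2 of the 25 were called in wild-type GSK, and 6601 and 13 in rd10 saline.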
